A study of Mus musculus with 18 samples.

Results

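The genes described here are 10 members of the common gamma chain cytokine system, chosen by symbol and all found among the 47729 genes of the count table: the cytokines *Il7*, *Il15* and *Il16*, and the receptor genes *Il2rg*, *Il2ra*, *Il2rb*, *Il4ra*, *Il7r*, *Il21r* and *Il15ra*. The common gamma chain, encoded by *Il2rg*, is the shared subunit of the receptors for IL-2, IL-4, IL-7, IL-9, IL-15 and IL-21, where it pairs with a chain that gives each receptor its specificity and signals through the kinase JAK3, while the partner chain uses JAK1. STAT5 carries most of the signal of IL-2, IL-7 and IL-15, and STAT6 that of IL-4. These cytokines maintain and expand lymphocytes, and in the gut wall IL-7 and IL-15 come largely from epithelial, stromal and myeloid cells. IL-16 does not use the gamma chain: it is a chemoattractant that binds CD4 and was part of the named set.

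RNA was sequenced from the colon of 9 mice, 3 in each group. Naive WT mice carried the control treatment label. WT CAC mice, also wild type, received the carcinogen azoxymethane (AOM, 10 mg/kg) and then drank dextran sulfate sodium (DSS, 2.5%) in 3 cycles, which models colitis-associated cancer (CAC). The animals of the third group, *Cldn2*TG CAC (genotype label Claudin-2TG), carried a transgene in which the villin promoter drives the tight junction gene *Cldn2* in intestinal epithelium, and received AOM and DSS as well. The study's methods name C57BL/6 mice and littermate controls, the labels give no strain, age or sex, and no group holds transgenic mice without CAC, so an effect of the transgene before treatment cannot be told apart from an effect during CAC. The design asks how CAC changed these genes in WT mice, and how the *Cldn2*TG mice differed from WT mice under the same challenge.

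Each library held 14142711 to 22262546 counts, so that 3 counts, the limit taken for detection, correspond to 0.130 to 0.222 CPM (counts scaled to a common library size, TMM-adjusted). The tissue label matched its markers: the epithelial keratins *Krt8* and *Krt19* stood at 5946 and 4349 CPM over all mice. *Cldn2* itself was at 192 to 259 CPM in naive WT, 119 to 137 in WT CAC and 208 to 251 in *Cldn2*TG CAC mice, so the transgenic mice were above the WT CAC mice but within the naive range. Naive WT mouse 1 stood apart from the other 8 mice in *Xist*, at 214 CPM against at most 0.203, and had *Ddx3y* at the detection limit. It was the only mouse with that female pattern, and the comparisons with naive mice are also given without it.

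All 10 genes are placed on GRCm38, with exonic lengths as in the count table. *Il2ra* (chr2:11642807-11693193) and *Il15ra* (chr2:11705290-11734317) are neighbours on the plus strand of chromosome 2, and *Il4ra* (chr7:125552120-125579474) and *Il21r* (chr7:125603429-125633570) are neighbours on the plus strand of chromosome 7. *Il16* (chr7:83642825-83745726, minus strand) lies elsewhere on chromosome 7, and *Il2rg* (chrX:101264378-101268255, minus strand) is on the X chromosome. *Il7* (chr3:7569994-7613760), *Il15* (chr8:82331637-82403222), *Il2rb* (chr15:78480553-78495066) and *Il7r* (chr15:9506161-9529876) are all on the minus strand. Exons of 4 members share bases with another gene. *Il16* shares 1202 of its 7865 exonic bases with *Stard5* on the opposite strand, and since strand-specific counting is not stated, reads from these bases cannot be assigned to either gene with certainty. *Stard5* stood at 42.5 ± 1.04 CPM in naive WT, 44.6 ± 4.53 in WT CAC and 47.6 ± 3.88 in *Cldn2*TG CAC mice (SD, n = 3) and was called in no comparison. *Il2rg* shares 728 bases, or 30.5% of its exonic bases, with Gm20489 on the same strand. *Il4ra* shares 571 bases with Gm44876 and *Il7* 105 with Gm16685. Gm20489 and Gm44876 had 0 counts in every library. How reads on bases shared between genes were counted is not stated, so the level of *Il2rg* per kb of exon may be understated.

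Promoters from 250 bases before to 50 bases after the start were available for 7 of the 10 genes (10 starts, RefSeq, GRCm38.p6). Those of the shared chain and of 3 partner chains that moved with it are shown because they are the genes on which the comparisons below turn. Capitals mark matches, on either strand, to the STAT motif TTCNNNGAA or to the NF-kB motif, and each sequence reads in the direction of the gene. The windows are chrX:101268206-101268505 for *Il2rg*, chr2:11642542-11642841 for *Il2ra*, chr15:9529827-9530126 for *Il7r* and chr7:125552021-125552320 for *Il4ra*.
Il2rg: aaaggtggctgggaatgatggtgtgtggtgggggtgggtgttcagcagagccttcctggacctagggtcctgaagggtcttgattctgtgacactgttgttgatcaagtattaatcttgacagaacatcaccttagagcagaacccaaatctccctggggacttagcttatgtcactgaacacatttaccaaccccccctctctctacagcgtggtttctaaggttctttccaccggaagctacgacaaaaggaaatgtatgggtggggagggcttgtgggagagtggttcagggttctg
Il2ra: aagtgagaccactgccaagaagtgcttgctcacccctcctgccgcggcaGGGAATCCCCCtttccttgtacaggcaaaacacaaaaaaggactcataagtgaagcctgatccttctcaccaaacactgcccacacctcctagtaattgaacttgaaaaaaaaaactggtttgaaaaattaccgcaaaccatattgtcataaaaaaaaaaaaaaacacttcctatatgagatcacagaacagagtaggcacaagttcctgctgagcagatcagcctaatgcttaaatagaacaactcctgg
Il7r: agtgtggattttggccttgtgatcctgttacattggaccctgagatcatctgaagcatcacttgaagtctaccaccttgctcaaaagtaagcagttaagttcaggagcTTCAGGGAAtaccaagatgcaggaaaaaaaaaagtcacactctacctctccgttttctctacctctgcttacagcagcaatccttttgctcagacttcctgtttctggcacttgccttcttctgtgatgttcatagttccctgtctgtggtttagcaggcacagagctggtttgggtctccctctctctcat
Il4ra: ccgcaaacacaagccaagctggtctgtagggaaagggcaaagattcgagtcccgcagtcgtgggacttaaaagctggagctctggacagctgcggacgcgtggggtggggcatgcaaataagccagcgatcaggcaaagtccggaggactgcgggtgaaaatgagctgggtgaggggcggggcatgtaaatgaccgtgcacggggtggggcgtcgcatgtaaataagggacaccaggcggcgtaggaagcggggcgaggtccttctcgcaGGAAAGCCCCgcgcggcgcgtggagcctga
The *Il2rg* window held none of the motifs searched. The *Il2ra* window held an NF-kB match 201 bases before the start, overlapping a second match shifted by 1 base. The *Il4ra* window held an NF-kB match beginning at base 21 after the start, and the *Il7r* window held a TTCNNNGAA match 142 bases before it. Over all 32851 promoters of the same length, 8.3% held TTCNNNGAA, 6.95% the wider STAT motif (TTC and GAA separated by 4 bases), 3.44% the interferon regulatory factor (IRF) motif (GAAA and GAAA separated by 2 bases) and 4.51% the NF-kB motif. Of the 10 starts of these genes, 1 held TTCNNNGAA, 0 held the wider STAT motif or the IRF motif, and 3 held the NF-kB motif, the third being a start of *Il16*. The *Il4ra* window was the richest in CpG, with 25 CpG sites and 62% G and C, against 3 CpG sites and 42.7% in *Il2ra* and 1 and 45.7% in *Il7r*.

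Of the 3 cytokine genes, *Il7* and *Il15* differed less between groups than *Il16*. *Il7*, which sustains naive and memory T cells and innate lymphoid cells, was at 10.2, 11.3 and 12.2 CPM in naive WT mice 1 to 3, at 12.8, 17.1 and 13.7 in WT CAC mice 4 to 6, and at 18.7, 13.1 and 9.53 in *Cldn2*TG CAC mice 7 to 9. The WT CAC mice all lay above the naive mice, whereas the *Cldn2*TG CAC mice spanned the levels of both. *Il15*, which supports natural killer cells and intraepithelial lymphocytes, was at 15.1, 21.2 and 14.0 CPM in naive WT, 29.9, 18.8 and 14.3 in WT CAC and 27.8, 17.1 and 20.8 in *Cldn2*TG CAC mice. The 3 groups overlapped throughout. *Il16*, in contrast, was at 1.69, 1.56 and 0.912 CPM in naive WT, 3.76, 3.80 and 3.55 in WT CAC and 1.24, 1.52 and 0.960 in *Cldn2*TG CAC mice. Every WT CAC mouse exceeded every other mouse, and the *Cldn2*TG CAC range fell inside the naive range.

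The shared chain followed the pattern of *Il16*. *Il2rg* was at 2.04, 0.753 and 1.22 CPM in naive WT, 3.10, 4.38 and 4.49 in WT CAC and 0.689, 0.659 and 1.26 in *Cldn2*TG CAC mice. The lowest WT CAC mouse was above the highest mouse of either other group. *Il2ra*, the chain that raises the affinity for IL-2 and marks regulatory and activated T cells, had 3, 2 and 4 counts in naive WT, 18, 79 and 19 in WT CAC and 1, 3 and 1 in *Cldn2*TG CAC mice, or 0.149, 0.10 and 0.174 CPM, 0.914, 3.49 and 1.27 CPM, and 0.0689, 0.152 and 0.0739 CPM. It was at about the detection limit outside WT CAC, and WT CAC mouse 5 held most of the WT CAC counts. *Il2rb*, the signalling chain shared by IL-2 and IL-15, was at 0.946, 0.653 and 1.69 CPM in naive WT, 1.47, 5.84 and 3.41 in WT CAC and 1.17, 0.608 and 0.813 in *Cldn2*TG CAC mice, so WT CAC mouse 4 lay below naive WT mouse 3.

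Among the remaining partner chains, *Il4ra*, which binds IL-4 and, together with *Il13ra1*, IL-13, was at 26.5, 26.3 and 37.3 CPM in naive WT, 35.8, 125.5 and 89.8 in WT CAC and 21.3, 17.7 and 24.4 in *Cldn2*TG CAC mice. WT CAC mouse 4 again lay at the naive level, and all *Cldn2*TG CAC mice were below all naive mice. *Il7r*, the specific chain for IL-7 on T cells and innate lymphoid cells, was at 0.697, 0.251 and 0.738 CPM in naive WT, 1.52, 3.80 and 1.81 in WT CAC and 0.482, 0.405 and 0.295 in *Cldn2*TG CAC mice. *Il21r*, found on B, T and natural killer cells, was at 2.39, 0.502 and 0.955 CPM in naive WT, 3.96, 3.76 and 4.02 in WT CAC and 0.758, 1.01 and 0.591 in *Cldn2*TG CAC mice. In both genes the WT CAC mice stood above all others, and naive WT mouse 1 had the highest *Il21r* outside them. *Il15ra*, which holds IL-15 on the cell surface and presents it to neighbouring cells, was at 6.42, 5.47 and 6.34 CPM in naive WT, 8.64, 6.94 and 5.09 in WT CAC and 7.03, 6.28 and 6.72 in *Cldn2*TG CAC mice. It was the only receptor gene whose 3 groups all overlapped.

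**Figure D1:**
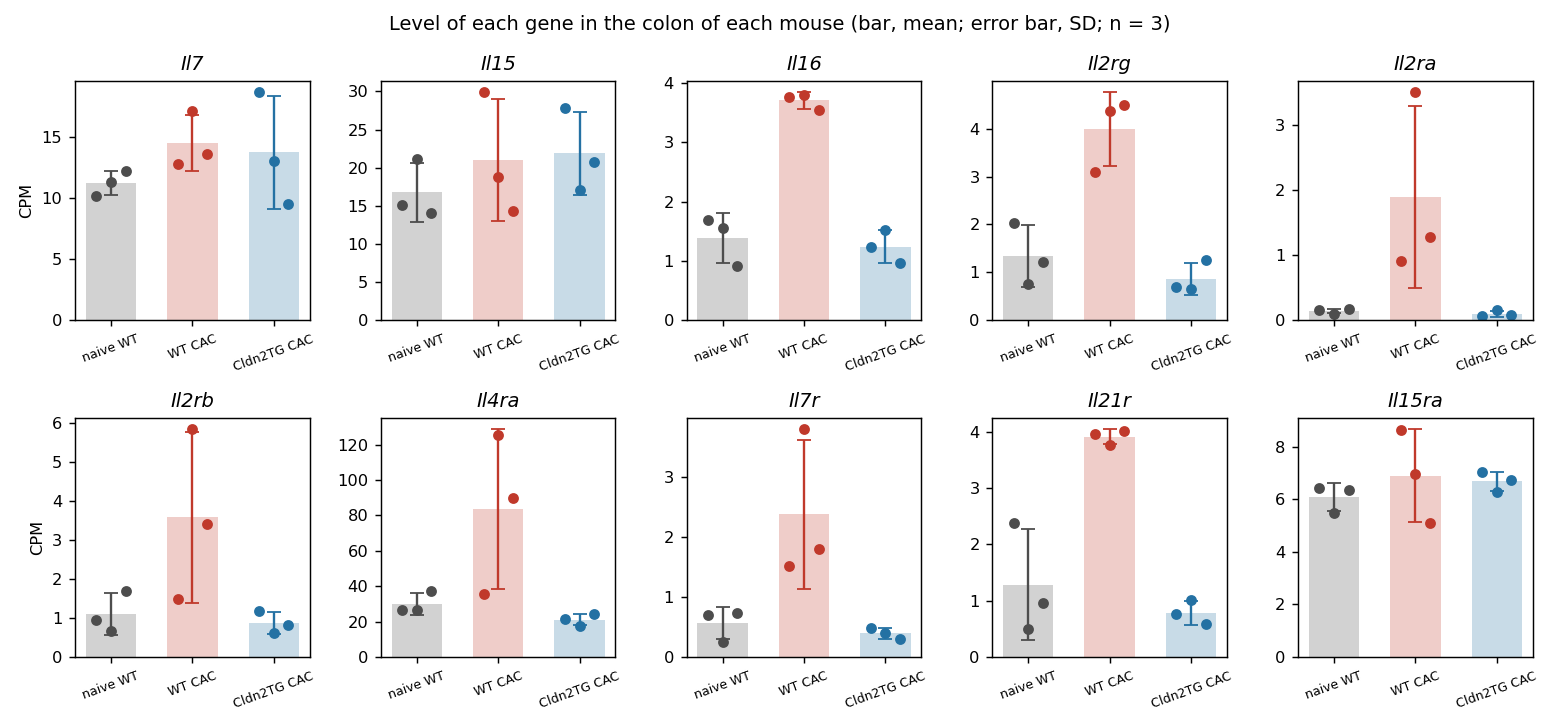
Level of the 10 genes in each mouse, in CPM on axes that start at 0, with 3 mice in each group (points), the group mean (bar) and SD (error bar). *Il16*, *Il2rg*, *Il2ra*, *Il7r* and *Il21r* show 3 WT CAC points above all others, while *Il7*, *Il15* and *Il15ra* overlap between WT CAC and *Cldn2*TG CAC mice.

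Per kilobase of exon, the unit in which levels of different genes can be set side by side, naive WT mice expressed *Il15* at 8.80 ± 2.02, *Il4ra* at 5.01 ± 1.05, *Il7* at 1.98 ± 0.177 and *Il15ra* at 1.37 ± 0.118 CPM per kb (SD, n = 3), and the ranges of each neighbouring pair in this order were apart. Below them came *Il2rg* at 0.560, *Il2rb* at 0.394, *Il21r* at 0.386, *Il16* at 0.176 and *Il7r* at 0.175 CPM per kb, with overlapping ranges between neighbours, and *Il2ra* was last at 0.0247. In WT CAC mice *Il4ra* came first at 13.9 ± 7.52 CPM per kb, but its range overlapped that of *Il15* at 11 ± 4.2. *Il7* followed at 2.56 ± 0.403, and *Il2rg* (1.67), *Il15ra* (1.55), *Il2rb* (1.28), *Il21r* (1.18), *Il7r* (0.741), *Il16* (0.471) and *Il2ra* (0.332 CPM per kb) formed a chain in which each neighbour overlapped the next. *Cldn2*TG CAC mice had the same order as naive mice, from *Il15* at 11.5 ± 2.84 and *Il4ra* at 3.52 ± 0.554 down to *Il2ra* at 0.0172 CPM per kb.

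In WT CAC against naive WT mice, 4 of the 10 genes were called higher and 0 lower, where 8.04% of the 15437 genes tested were called higher and 6.92% lower (edgeR, adjusted p under 0.05). All 10 log2 fold changes were above 0, with a median of 1.55, beside 0.02 over all genes tested. *Il2ra* rose most, with a log2 fold change of 3.71 ± 0.649 (SE, adjusted p = 0.0150), or 2.91 without WT CAC mouse 5. From its pooled 116 and 9 counts the ratio was 14.2, with an exact 95% counting interval of 7.22 to 31.8 that covers counting error only. *Il7r* rose 4.27-fold (log2 2.09 ± 0.511, adjusted p = 0.0334). *Il2rg* rose 3.02-fold (log2 1.60 ± 0.388, adjusted p = 0.0328), and *Il16* 2.72-fold (log2 1.44 ± 0.304, adjusted p = 0.0232). These 4 genes comprise the common chain, the chains that confer high affinity for IL-2 and specificity for IL-7, and the CD4 ligand.

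The other 6 genes were not called in WT CAC mice. *Il2rb* (log2 fold change 1.72, adjusted p = 0.0728), *Il21r* (1.63, adjusted p = 0.0640) and *Il4ra* (1.5, adjusted p = 0.0551) had estimates close to that of *Il2rg* but wider intervals. DESeq2 called all 3, for 7 of 10, where it called 1752 of 15434 genes higher and edgeR 1241 of 15437. On counts simulated for this comparison DESeq2 made 41 false calls against 10 of edgeR and recovered 190 of 200 changed genes against 181. Those counts were drawn with dispersions estimated by edgeR, so they cannot rank the tools. The value of *Il7* was 0.40 (95% interval 0.02 to 0.77, adjusted p = 0.138). *Il15* had 0.35 (-0.31 to 1.01) and *Il15ra* 0.21 (-0.34 to 0.76), intervals that include 0. Mice of the 2 groups did not overlap in 6 of the 10 genes, all with WT CAC above, against 17.7% of all genes tested. An exact permutation test of 3 against 3 mice cannot give a p below 0.1, and these 6 genes reached it. The calls rested on the full set of mice: without naive WT mouse 1, which carried the female pattern, *Il2rg* and *Il21r* were called and the estimate of *Il21r* went from 1.63 to 2.43, without naive WT mouse 2 or 3 none was, without WT CAC mouse 5 or 6 only *Il2ra* was, and without WT CAC mouse 4 the calls numbered 6. Over all genes, 631, 135 and 404 were called without naive WT mouse 1, 2 or 3, against 2310 with all mice. Without WT CAC mouse 4, 5 or 6 the numbers were 4080, 1245 and 1062. In the first lane alone, *Il2rg*, *Il7r* and *Il21r* were called, *Il16* was not (adjusted p = 0.0511 by edgeR) and *Il2ra* was too low to be tested. In the second lane alone, the call of *Il2rg* was lost (adjusted p = 0.0748 by edgeR) and *Il2ra* had 4.42. Every estimate of the 10 genes was above 0 in these fits.

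In *Cldn2*TG CAC against WT CAC mice, 7 of the 10 genes were called lower and 0 higher, where 7.35% of the 14888 genes tested were called lower and 2.19% higher. The median log2 fold change was -2.04, beside 0.01 over all genes tested. *Il2ra* had the largest change, with a log2 fold change of -4.14 ± 0.722 (SE, adjusted p = 0.0131). Without WT CAC mouse 5, which held most of the counts, the value was -3.33. Its pooled 116 counts in WT CAC against 5 in *Cldn2*TG CAC mice gave a ratio of 19.4, with an exact 95% counting interval of 8.07 to 60.8. *Il7r* was 6.04-fold lower (log2 -2.59 ± 0.477, adjusted p = 0.0150) and *Il21r* 4.94-fold lower (log2 -2.30 ± 0.311, adjusted p = 0.00777). The common chain *Il2rg* was 4.70-fold lower, with a 95% interval of 2.67 to 8.25 (log2 -2.23 ± 0.358, adjusted p = 0.0104). *Il2rb* was 4.23-fold lower (adjusted p = 0.0428), *Il4ra* 4.02-fold lower (adjusted p = 0.0305) and *Il16* 3.00-fold lower (adjusted p = 0.0148). The genes called lower were the gamma chain, the 5 partner chains other than *Il15ra*, and *Il16*.

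*Il7*, *Il15* and *Il15ra* were not called. The 95% interval of the log2 fold change was -0.67 to 0.47 for *Il7*, -0.64 to 0.70 for *Il15* and -0.62 to 0.48 for *Il15ra*, so at this spread a change of the size seen in *Il16* or the receptor chains lay outside the interval of each. The mice of the 2 groups did not overlap in the 7 genes called, with *Cldn2*TG CAC below, against 14.3% of all genes tested, and the exact permutation p of each was 0.1, the smallest possible. DESeq2 called the same number, 7, where it called 1484 of 14885 genes lower. The calls of *Il2rb* and *Il4ra* were lost without WT CAC mouse 5 or 6, that of *Il4ra* with no low-count filter, and that of *Il2rb* in either lane alone, where *Il2ra* was too low to be tested. Leaving out a transgenic mouse ended most calls: without mouse 7 only *Il21r*, without mouse 8 none and without mouse 9 only *Il2rg* was called, while every estimate of the 7 genes was at -1.43 or below. Over all genes, 460, 58 and 108 were called in these fits, against 1421 with all mice, so the loss was general.

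**Figure D2:**
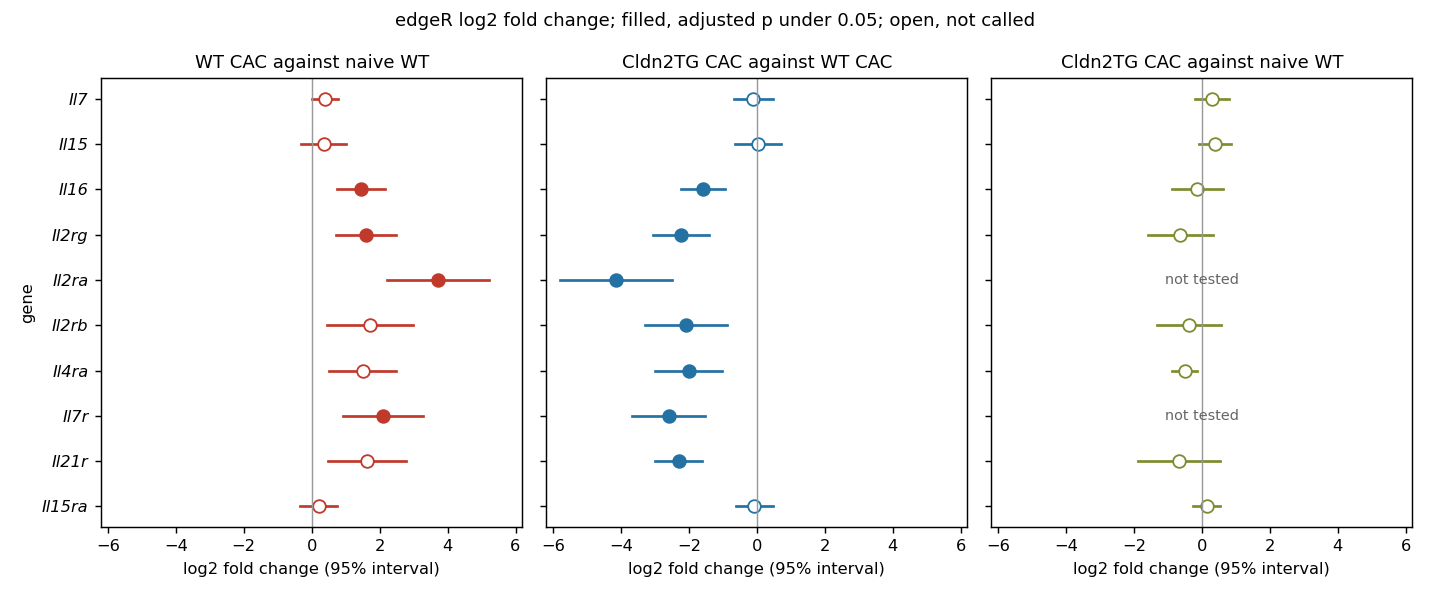
Log2 fold change of the 10 genes (points) with its 95% interval (lines) in the 3 comparisons, from edgeR on 3 mice a group; filled points have an adjusted p under 0.05. The 7 genes called lower in *Cldn2*TG CAC against WT CAC mice lie between -4.14 and -1.58, and *Il7*, *Il15* and *Il15ra* lie near 0.

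*Cldn2*TG CAC and naive WT mice were compared as the remaining pair. It shares its mice with the 2 comparisons above and is no separate evidence. Of the 8 genes with enough counts to be tested, 0 were called, where 10.0% of the 15013 genes tested were called. At an unadjusted p under 0.05, 1 of 8 passed (*Il4ra*), against 26.0% of all genes. DESeq2 called 0 of them, where it called 1794 of 15006 genes. *Il4ra* had a log2 fold change of -0.51 (95% interval -0.88 to -0.13, adjusted p = 0.0864) and was the 1 gene tested in which the *Cldn2*TG CAC mice all lay below the naive mice, a separation met by 16.3% of all genes. *Il2rg* had -0.64 (-1.60 to 0.32), *Il21r* -0.67 (-1.87 to 0.54), *Il2rb* -0.37 (-1.31 to 0.57) and *Il16* -0.13 (-0.89 to 0.62). These intervals span 0 but also allow differences of more than 1.5-fold. *Il2ra* and *Il7r* were too low to be tested, with 5 against 9 and 19 against 36 pooled counts. Without naive WT mouse 1, *Il21r* turned from -0.67 to 0.13, *Il16* from -0.13 to 0.05, and again 0 of these genes were called.

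The cytokines that act through these receptors but lay outside the set were hardly detected. *Il9* had 0 counts in all 9 mice, *Il21* 4 and *Il13* 1, all in WT CAC mice. Pooled over the 3 mice of each group, in the order naive, WT CAC and transgenic, *Il2* had 13, 24 and 15 counts, *Il4* 15, 9 and 8 and *Tslp* 21, 17 and 11. These cytokines were too low to be tested. Of the other receptor genes, *Crlf2*, the chain that binds TSLP and pairs with *Il7r*, was at 7.51 ± 2.0, 13.0 ± 5.35 and 4.92 ± 0.62 CPM (SD, n = 3), and was lower in *Cldn2*TG CAC than in WT CAC mice (log2 -1.42, adjusted p = 0.0318). *Il9r*, named here after its values were seen, followed the partner chains, higher in WT CAC than in naive mice (log2 2.41, adjusted p = 0.0350) and lower in the transgenic mice (log2 -2.05, adjusted p = 0.0235). *Il13ra1*, the partner of *Il4ra* in non-lymphoid cells, was called in no comparison, at 0.24 and -0.11 in the first 2. Of these 10 ligand and receptor genes 3 could be tested in the first 2 comparisons, of which 1 was higher in WT CAC mice (median log2 0.82) and 2 were lower in the transgenic mice (median -1.42), and 0 of 2 were called between transgenic and naive mice (median -0.24).

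Downstream of the receptors, calls among the kinases and STATs were about as rare as among all genes. *Jak1*, the kinase of the partner chains, was at 149 ± 4.43 CPM in naive WT, 124 ± 16.4 in WT CAC and 139 ± 8.48 in *Cldn2*TG CAC mice and was called in no comparison. *Jak3*, the kinase bound by the gamma chain, was at 15.4 ± 1.69, 20.5 ± 4.94 and 12.2 ± 0.936 CPM, and was lower in *Cldn2*TG CAC than in WT CAC mice (log2 -0.77, adjusted p = 0.0455). *Stat5a* was at 10.7, 11 and 11 CPM, *Stat5b* at 23.6, 20.9 and 20.5 and *Stat6* at 100.3, 89.0 and 87.3, and none was called in any comparison. *Stat3*, named after its values were seen, was at 159 ± 6.92, 176 ± 48.3 and 151 ± 9.46 CPM and was not called either. Of these 6 genes of the kinase and STAT list, from which another gene was left out, 0 were called in WT CAC mice (median log2 -0.04), where 15% of all genes were called. In transgenic against WT CAC mice 1, *Jak3*, was called lower (median -0.05), where 9.54% of all genes were called. Between transgenic and naive mice 0 were called (median -0.15), where 3.92% of all genes were called higher and 6.07% lower. With 6 genes, such counts cannot be told apart from these shares.

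The adaptors and inhibitors were mixed, with 1 of 7 adaptor and PI3-kinase genes called in each direction in the first 2 comparisons (medians -0.18 and 0.08) and 0 in the other (-0.02). *Pik3cd*, the leukocyte PI3-kinase subunit, rose in WT CAC mice (log2 1.14, adjusted p = 0.0295) and was lower in *Cldn2*TG CAC mice (-1.56, adjusted p = 0.00879). *Irs2*, an adaptor of insulin and IL-4 receptors, went the other way (-1.27, adjusted p = 0.00806, and 0.94, adjusted p = 0.0202). Among 8 feedback inhibitors and phosphatases, 3 were higher in WT CAC than in naive mice (median -0.08), 1 was lower in transgenic than in WT CAC mice (-0.07) and 1 was higher in transgenic than in naive mice (-0.04). *Socs1*, which restrains JAK signalling, was at 3.45 ± 0.917, 8.06 ± 2.21 and 3.98 ± 1.47 CPM, higher in WT CAC mice (1.25, adjusted p = 0.0308) and not called in *Cldn2*TG against WT CAC mice (-1.03, adjusted p = 0.0826). *Socs3*, an inhibitor of the IL-6 family, was higher both in WT CAC (3.23, adjusted p = 0.0281) and in *Cldn2*TG CAC mice (0.90, adjusted p = 0.0300) than in naive mice. *Ptpn6* was higher in WT CAC mice (0.45, adjusted p = 0.0265) and lower in *Cldn2*TG CAC mice (-0.46, adjusted p = 0.0422). *Cish*, a direct target and inhibitor of STAT5, was at 16.1 ± 2.52, 12.4 ± 3.27 and 16.8 ± 4.53 CPM and was called in no comparison.

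**Figure D3:**
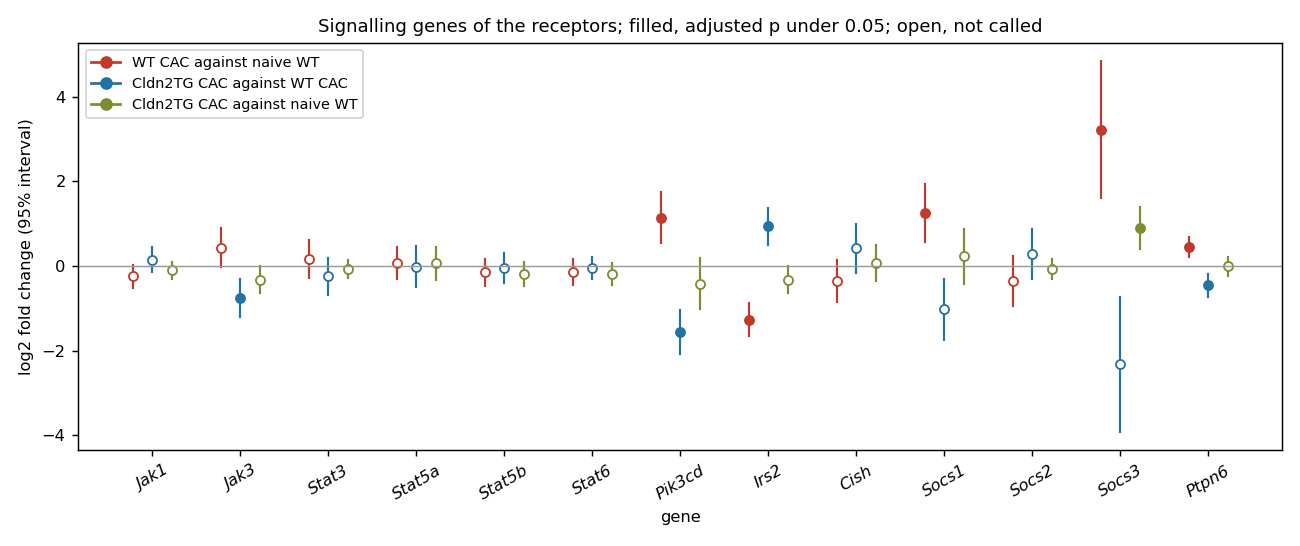
Log2 fold change (points) with 95% interval (lines) of 13 kinases, STATs, adaptors and inhibitors in the 3 comparisons; filled points have an adjusted p under 0.05. *Jak1*, *Stat5a*, *Stat5b*, *Stat6* and *Cish* have open points in every comparison, and *Pik3cd* and *Ptpn6* have filled points on opposite sides of 0 in the first 2.

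Of 8 genes linked to STAT5, which include survival and cell cycle genes, 6 could be tested, and 0 were called in either of the first 2 comparisons (medians 0.27 and -0.29), while *Mcl1* (log2 0.65, adjusted p = 0.00599) and *Ccnd2* (0.40, adjusted p = 0.0215) were higher in transgenic than in naive mice (median of the list -0.07). Of 11 genes linked to STAT6, 3 of the 7 tested were higher and 1 was lower in WT CAC mice (median 0.72), 3 of the 8 tested were lower and 1 was higher in transgenic than in WT CAC mice (median -0.94), and 0 of 5 were called between transgenic and naive mice (0.32). *Arg1*, an arginase of alternatively activated and suppressive myeloid cells, went from 0.266 ± 0.102 CPM in naive WT to 28.6 ± 23.6 in WT CAC and 0.235 ± 0.0525 in *Cldn2*TG CAC mice (log2 6.72, adjusted p = 0.0265, and -6.93, adjusted p = 0.0333). WT CAC mouse 4 had only 1.47 CPM of it. *Ccl22*, a chemokine for regulatory T cells, moved alike (3.36, adjusted p = 0.00806, and -2.82, adjusted p = 0.00875). *Mrc1*, the macrophage mannose receptor, named after its values were seen, was the remaining gene of this direction (1.92 and -1.60). *Clca1*, a goblet cell product, went the opposite way (-0.96, adjusted p = 0.0173, and 0.98, adjusted p = 0.0372). Of 7 lymphocyte transcription factors, *Foxp3*, named after its values were seen, had 4, 63 and 4 pooled counts in the 3 groups and was the 1 of 5 tested that was higher in WT CAC mice (3.97, adjusted p = 0.0178; median of the list 0.91). In transgenic against WT CAC mice 4 of the 7, *Foxp3* among them, were too low to be tested, of which 3 had all transgenic mice below all WT CAC mice, and 0 of the 3 tested were called (median -0.29). *Id2*, which innate lymphoid cells need, was higher in transgenic than in naive mice (0.63, adjusted p = 0.0194).

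Markers of several leukocyte types had medians in the same directions as the receptor chains. The markers named in the following are the 2 of each list with the highest mean over all 9 mice, an order that does not hold in every group. *Ptprc*, which encodes CD45 on all leukocytes, was at 10.9, 4.67 and 9.47 CPM in naive WT, 16.9, 24.3 and 20.2 in WT CAC and 7.37, 6.13 and 4.21 in *Cldn2*TG CAC mice, higher in WT CAC mice (log2 1.31, adjusted p = 0.0297) and lower in *Cldn2*TG CAC mice (-1.81, adjusted p = 0.00777). Of 12 T cell markers, 11 were higher in WT CAC mice (median log2 2.18) and 9 lower in the transgenic mice (median -1.92), and their summed level was 7.18 to 14.5 CPM in naive WT, 28.7 to 48.2 in WT CAC and 8.72 to 14.1 in *Cldn2*TG CAC mice. Among them *Lck* and *Zap70*, kinases of the T cell receptor, were at 3.60 and 0.670 CPM in naive, 6.54 and 6.21 in WT CAC and 3.54 and 0.589 in transgenic mice. Of 10 macrophage and monocyte markers, among them *Cd14* and *Lyz2*, 6 were higher in WT CAC mice (median 1.63) and 6 of the 9 tested were lower in transgenic mice (median -2.23), while against naive mice 1 of 9 was lower, with sums of 197 to 224, 239.7 to 460 and 129.8 to 191 CPM. *Cd14*, the largest part of the naive sum, was at 102, 117 and 74.7 CPM in naive, WT CAC and transgenic mice, and *Lyz2* at 43.6, 113.5 and 24.2. Of 8 B cell markers, among them *Cd79b* and *Cd79a*, 0 were called in WT CAC mice (median 1.62) and 1 was lower in transgenic mice (median -1.94), although 7 of the 8 had all transgenic mice below all WT CAC mice, and their sum in naive WT mouse 1, 36.9 CPM, lay within the WT CAC range of 30.2 to 59.4 CPM. No T cell, B cell or macrophage marker was at 0 in any mouse. The part of these cells in the changes of the receptor chains was not tested, and in whole colon fewer cells of a type and less RNA per cell cannot be told apart.

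The remaining cell types differed in how many markers were called. Of 9 markers of cytotoxic and innate lymphocytes, which include the cells that need IL-15 and *Ccl5* and *Gzma* among the genes, 5 could be tested, of which 1 was higher in WT CAC and 1 lower in the transgenic mice (medians 1.56 and -1.51), with sums of 2.61 to 10.9, 10.4 to 32.9 and 4.2 to 9.68 CPM. Plasma cell markers gave 2 of 5 higher in WT CAC and 3 of 5 lower in transgenic mice (medians 1.73 and -2.09). *Sdc1* and *Xbp1*, which made up most of their summed level, varied little, at 270, 301 and 276 CPM and at 264, 289 and 275 CPM in naive, WT CAC and transgenic mice. *Jchain* was at 55.8, 335 and 51.6 CPM and *Mzb1* at 1.65, 7.37 and 1.51, both named after their values were seen. Neutrophil markers, among them *Ly6g* and *S100a9*, gave 4 of 4 higher and 2 of 3 lower (medians 4.90 and -5.12), and their part in the changes of the receptor chains was not tested. Their summed level, most of which was *Ly6g*, did not follow: it was 137 to 208 CPM in naive, 299.9 to 378 in WT CAC and 302 to 351 in transgenic mice. *Ly6g* alone was at 314 CPM in WT CAC and 328 in transgenic mice and was called higher in transgenic than in naive mice (log2 0.87, adjusted p = 0.00881). Of 8 mast cell and eosinophil markers, 5 were tested, of which 2 were called higher and 1 lower in WT CAC mice, 1 higher and 2 lower in transgenic than in WT CAC mice, and 1 higher in transgenic than in naive mice. In naive, WT CAC and transgenic mice *Kit* was at 46.4, 19.5 and 36.3 CPM and *Cma1* at 7.53, 11.7 and 12.1. *Mcpt1* (1.27, 19.2 and 0.803) and *Mcpt2* (0.419, 11.3 and 0.599), named after their values were seen, were highest in WT CAC mice. All 9 epithelial markers could be tested and 0 were called in the first 2 comparisons, while 2 were higher in transgenic than in naive mice (median 0.22), with sums of 15959 to 17537, 16151 to 19470 and 17436 to 21555 CPM. Of 6 endothelial markers, among them *Pecam1* and *Cdh5*, 0 were called in WT CAC mice, 3 were lower in transgenic than in WT CAC mice and 4 were lower in transgenic than in naive mice (medians 0.02, -1.01 and -0.97), at sums of 30.5 to 37.9 in naive, 27.6 to 44.1 in WT CAC and 14.2 to 17.2 CPM in transgenic mice. Of 7 fibroblast markers, among them *Col3a1* and *Dcn*, 2 were lower in transgenic than in WT CAC mice and 1 was lower than in naive mice. Of 6 smooth muscle markers, among them *Tagln* and *Des*, 0 were called in transgenic against WT CAC mice and 2 were lower in transgenic than in naive mice.

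**Figure D4:**
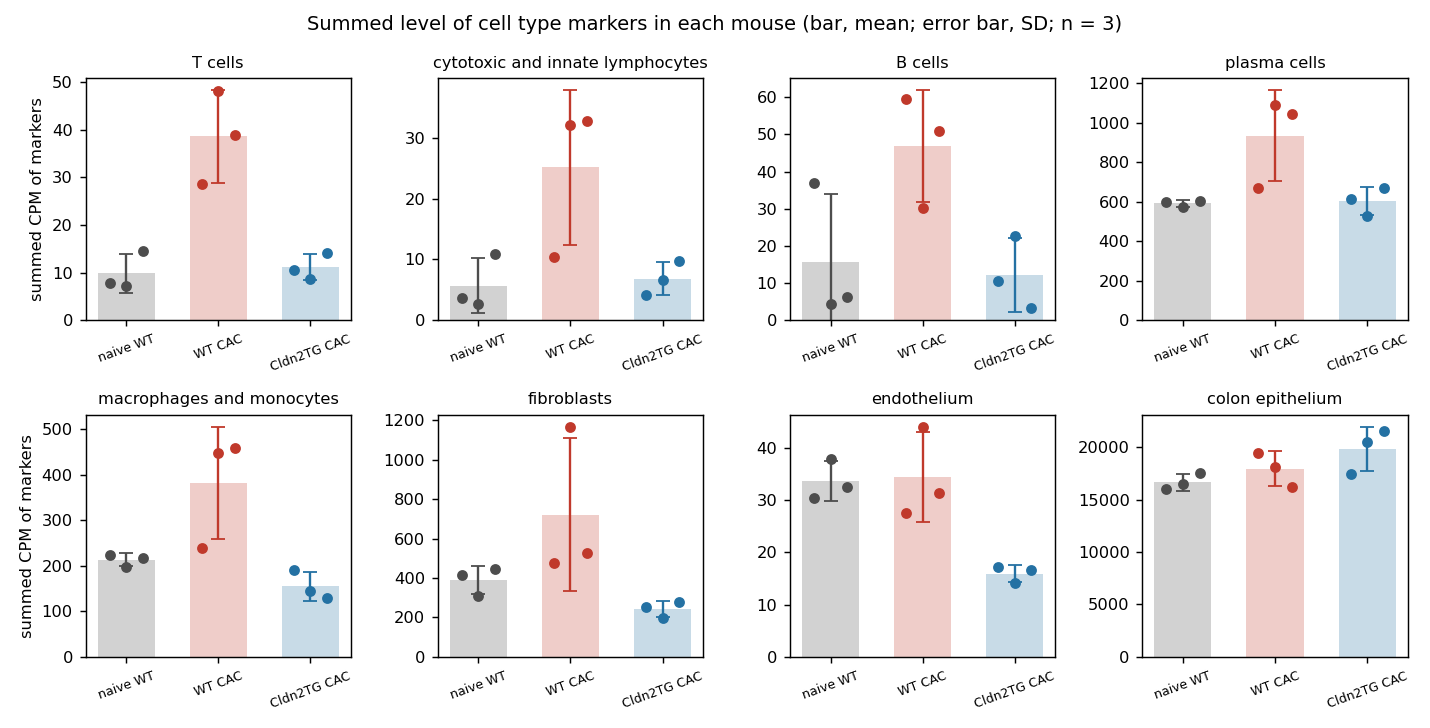
Summed CPM of the markers of 8 cell types in each mouse (points), with group mean (bar) and SD (error bar, cut at 0), on axes that start at 0. T cell sums are 28.7 to 48.2 in WT CAC mice and at most 14.5 in the others, while epithelial sums overlap.

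Each gene was also set, within each library and with 0.5 added to every count, against *Epcam*, which is epithelial and was called in no comparison, and against *Ptprc*. Such a ratio does not depend on the scaling between libraries, but for *Il2ra*, with 1 to 3 counts in the transgenic mice, the added 0.5 weighs on the value. Relative to *Epcam*, the same 7 genes were below in all *Cldn2*TG CAC mice, by log2 differences of -3.67 for *Il2ra* to -1.56 for *Il16*, and the mice overlapped for the other 3. *Epcam* hardly differed between these groups (log2 -0.04), so its ratios repeat the result in CPM and are no separate evidence. The share of all genes that separate on a ratio to *Epcam* or *Ptprc* was not computed. Relative to *Ptprc*, the difference between *Cldn2*TG CAC and WT CAC mice was -0.04 for *Il2rb*, -0.01 for *Il4ra*, 0.23 for *Il16*, -0.39 for *Il2rg* and -0.49 for *Il21r*, and in these 5 genes the mice of the 2 groups overlapped (exact permutation p of 0.2 to 1.0). *Il2ra* remained below by -1.88 and *Il7r* by -0.59, with no overlap and the smallest possible exact p of 0.1. Both genes were also higher relative to *Ptprc* in WT CAC than in naive mice, by 1.96 and 0.70, whereas *Il7* and *Il15ra* were lower without overlap, with differences of -1.0 and -1.21. *Il7*, *Il15* and *Il15ra* were higher per *Ptprc* in all *Cldn2*TG CAC than in all WT CAC mice, by 1.69, 1.91 and 1.79. *Ptprc* itself changed by log2 1.31 in WT CAC against naive mice and by -1.81 in transgenic against WT CAC mice. A gene of unchanged CPM shifts by about as much in the opposite direction, so these shifts of uncalled genes follow from *Ptprc*. In *Cldn2*TG CAC against naive WT mice the ratios to *Ptprc* overlapped for all 10 genes.

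**Figure D5:**
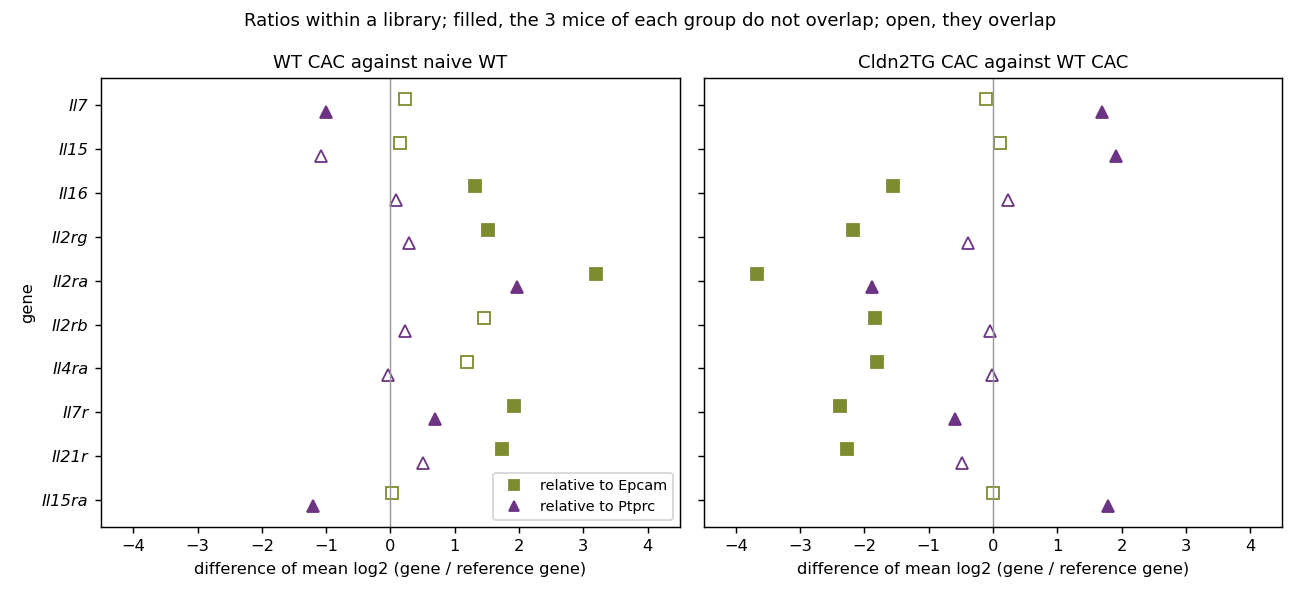
Difference between group means of the log2 ratio of each gene to *Epcam* (squares) or to *Ptprc* (triangles) within a library, 3 mice a group; filled symbols mark groups that do not overlap. Relative to *Ptprc*, *Il2ra* and *Il7r* are the receptor chains with filled symbols left of 0 in *Cldn2*TG CAC against WT CAC mice (-1.88 and -0.59).

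Across the 9 mice, which differ by group, the 7 genes that were lower in *Cldn2*TG CAC mice had pairwise Pearson correlations of log2 CPM of 0.66 to 0.96 over 21 pairs (median 0.88). Between any of them and *Il7*, *Il15* or *Il15ra* the values were -0.28 to 0.54 over 21 pairs. The 7 genes were picked by their difference between groups of these same mice. Higher values among them than with the others therefore follow from that choice. The closest pair was *Il2rb* with *Il4ra* (0.96), and *Il15* and *Il15ra* had 0.68. Among 13916 genes with a mean of at least 1 CPM, those most like *Il2rg* were *Tgfb1* (0.98), *Ptpn22* (0.98), *Ctps* (0.98), *Lcp2* (0.97) and *Odf2l* (0.96). Those most like *Il4ra* were *Ccr2* (0.99), a chemokine receptor of monocytes, and *Tnfrsf1b*, *Ighv1-64*, *Dhrs9* and *Fcgr3* (0.98 each), and those most like *Il16* were *Chrd* (0.97), *Clu* (0.96), *Lpxn* (0.96), *Arhgdib* (0.96) and *Cfp* (0.95). *Il7* was nearest to *Borcs7* (0.96), *Ctso* (0.96), *Trim12c* (0.95), *Fgfr2* (0.93) and *Sh3glb1* (0.91), and *Il15* to *Usp2* (0.94), *Prss32* (0.91), *Lrp4* (0.90), *Mars2* (0.90) and *Arhgap27* (0.90). With 9 mice in 3 groups these are descriptions of shared pattern.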

How the data were processed

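Colon RNA of 9 mice was sequenced as 1 library a mouse on 2 lanes, and samples were grouped by their genotype and treatment labels. The protocol text of the control samples also names AOM and DSS; the treatment label was followed. The authors deposited whole-number counts per gene, not normalized, for 47729 Ensembl genes, with gene lengths. The submitters' processing notes name HISAT2, featureCounts of Subread and GRCm38, whereas the study's methods name TopHat2; versions, annotation and strand are not given in the sources used here. GENCODE M21 gave symbols for 47224 genes.

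Lanes were summed after their counts had been found to differ by no more than sampling noise (chi-square per degree of freedom 0.995 to 1.06), and all 18 columns were used. Each comparison was fitted on its 6 mice with edgeR 4.0.16 (R 4.3.3; TMM, filterByExpr with minimum count 10 and total 15, robust quasi-likelihood, two-sided), with Benjamini-Hochberg adjustment over all genes tested and calls at an adjusted p under 0.05. Nothing in the labels says more of the replicates than that they are separate mice. CPM use TMM factors over 9 mice. Ratios and single values had two-sided exact permutation tests. For ratios 0.5 was added to counts, and single values were tested on log2 CPM with an offset on the CPM scale. Counting intervals cover counting error only. DESeq2 1.42.0 and 7 other settings, and leaving out each mouse, were alternatives. On simulated counts with 200 changed genes, edgeR recovered 181 for WT CAC against naive WT (15437 genes), 192 for transgenic against WT CAC (14888) and 195 for transgenic against naive WT (15013), with 10, 17 and 15 false calls, where DESeq2 recovered 190, 196 and 196 with 41, 39 and 25. The simulated counts were drawn with dispersions estimated by edgeR, and genes of low level were not among those changed.

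The 10 members, the gene lists and the tests were chosen with earlier results of these data known. Of the lists, *Jak1*, *Jak3*, *Stat5a*, *Stat5b*, *Stat6*, *Cish* and *Socs1* were always named, with the 2 called genes of largest change and a mean of at least 1 CPM in each list and comparison, and the 2 markers of each list with the highest mean over all mice; genes outside this rule were chosen after their values were seen. For likeness, the 5 genes with the highest Pearson r of log2 CPM (prior count 2) were taken. Promoters came from RefSeq. Python 3.11.15, pandas 2.3.3, scipy 1.17.1 and matplotlib 3.10.9 were used. A gene of the kinase and STAT list is not reported here, and the counts and medians of that list leave it out.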

Additional observations from a re-analysis of the deposited data

How the results depend on the processing

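Over the settings that kept all mice, 196 values of single genes kept their direction and side of the threshold, 5 lost a call, 10 gained one and 2 turned sign, not counting members too low to be tested under a setting. These were, among the calls reported, *Il2ra* and *Il7r* (WT CAC against naive) and *Il2ra*, *Il7r* and *Il21r* (transgenic against WT CAC) with at least 10 counts in every mouse, and *Il2ra* in the first lane of the former and both lanes of the latter. In WT CAC against naive WT mice the members called were 7 under DESeq2, 2 with at least 10 counts in every mouse, which removes low genes by construction, and 7 with all 9 mice in the fit. Over all genes, 3220, 1890 and 3171 were called under these settings. In *Cldn2*TG CAC against WT CAC mice 908 genes and 4 members were called with at least 10 counts in every mouse, and 2136 genes with all 9 mice. Against naive mice the transgenic mice had 2567 genes called with no filter and 445 with all 9 mice, and 1 member with library size only or with no filter. With library size only, the calls between transgenic and naive mice split into 276 higher and 1310 lower, against 589 and 912 with TMM. *Il15*, not called, turned to -0.0639 with library size only and -0.0073 with upper-quartile scaling between transgenic and WT CAC mice. The cause of these shifts was not tested.

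Leaving out 1 mouse gave 135 (without naive mouse 2) to 4080 genes (without WT CAC mouse 4) and 0 to 6 members for WT CAC against naive mice, 58 (without transgenic mouse 8) to 2894 genes (without WT CAC mouse 4) and 0 to 7 members for transgenic against WT CAC mice, and 525 to 1383 genes and 0 members for transgenic against naive mice. Of the single genes, 115 values kept direction and side of the threshold, 40 lost a call, 3 gained one and 10 turned sign, in fits that have 5 mice. Uncalled estimates turned sign: for transgenic against WT CAC mice, *Il7* ranged from -0.37 to 0.11, *Il15* from -0.17 to 0.38 and *Il15ra* from -0.23 to 0.13, and against naive mice *Il2rb* from -0.66 to 0.0922, *Il21r* from -1.04 to 0.13 and *Il16* from -0.37 to 0.0458. No paired analysis was possible because each mouse has its own number and no number is shared between groups. Depth limits *Il2ra* and *Il7r*, which had few counts outside WT CAC mice.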

Other observations

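Ratios of a cytokine to its receptor chain within a library were chosen after the values were seen. In transgenic against WT CAC mice *Il7* and *Il15* were not called, whereas *Il7r* and *Il2rb* were called lower. The ratios of these pairs restate those differences and are no separate evidence. How often other pairs of genes separate in this way was not computed. With 0.5 added to each count, the ratio of *Il7* to *Il7r* counts was 14.2, 41.0 and 16.1 in naive WT, 8.28, 4.48 and 7.44 in WT CAC and 36.2, 30.4 and 28.8 in *Cldn2*TG CAC. The mean log2 ratio was 2.28 higher in *Cldn2*TG CAC than in WT CAC mice, and the difference between WT CAC and naive mice was -1.69, both without overlap (exact permutation p = 0.1, the smallest possible). The transgenic mice lay inside the naive range (difference 0.59, exact permutation p = 0.4). For *Il15* over *Il2rb* the ratios were 15.6, 31.3 and 8.19, then 19.9, 3.22 and 4.15, then 23.1, 27.0 and 24.5, so that all transgenic mice lay above all WT CAC mice (difference 1.95, exact permutation p = 0.1), while WT CAC mouse 4 lay inside the naive range (WT CAC against naive -1.30, exact p = 0.3, and transgenic against naive 0.64, exact p = 0.4). *Il15* over *Il15ra*, the cytokine and the chain that presents it, lay between 2.21 and 3.94 in all 9 mice, with differences of 0.11 to 0.24 on the log2 scale (exact permutation p of 0.5 to 0.6).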
